A study of Homo sapiens with 22 samples.

Results

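MTBP binding was mapped in the human line DLD-1, established from a colorectal adenocarcinoma, and the peaks described here are those that lay between genes and outside the enhancers and promoters of the authors' list. They are the peaks on chromosomes 1 to 22 and X whose location class was Others and whose annotation was Intergenic, which left out peaks annotated to a repeat. There were 4021 of them among 29848 MTBP peaks (13.5%), and they covered 3.77 Mb. The choice used the position of a peak and not its signal, its H3K4me2 or its initiation zone. The series holds 22 libraries in 8 groups. CUT&RUN releases DNA near a protein by bringing a nuclease to an antibody bound there. It was run with anti-FLAG in MTBP-mAID/MTBP-WT-FLAG cells (3 libraries), in MTBP-mAID/MTBP-deltaC-FLAG cells (3 libraries), where the tagged MTBP lacks its C-terminal part, and in untagged MTBP-mAID/MTBP-mAID cells as control (3 libraries). IgG and an antibody to H3K4me2 were used in MTBP-mAID/MTBP-WT-FLAG cells (2 libraries each). EdU-seq, which captures newly made DNA through a nucleotide analogue, was done in MTBP-mAID/MTBP-WT-FLAG cells held in G1 (3 libraries), in the same line let into S phase (3 libraries) and in MTBP-mAID/MTBP-deltaC-FLAG cells let into S phase (3 libraries). EdU was given at 10 µM for 3 hr, and the released cells were also in hydroxyurea and aphidicolin, which hold forks near the sites where they start. Every line carries MTBP-mAID, an allele with an auxin-inducible degron, beside the FLAG-tagged copy or, in the control, as the only form, and no label says whether a line is 1 clone.

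MTBP is the partner of Treslin. The pair acts at the step where an inactive helicase already loaded on DNA is turned on by CDC45 and GINS, and a cell without this step does not start replication. In human cells replication starts within broad zones rather than at fixed points, and these zones often lie beside active genes. H3K4me2 marks active promoters and enhancers, so a peak far from any annotated gene can still lie on marked chromatin. The signals of MTBP, the H3K4me2 peaks and the zones all come as 1 list each for the whole series, with a single MTBP value per line and peak and no value per library. Spread is therefore given over peaks and over the 23 chromosomes, and no spread between cultures was available.

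The label was checked against RefSeq. Of the 4021 peaks, 1083 (26.9%) overlapped a gene in RefSeq's GRCh38.p14 table, 776 of them a long noncoding RNA gene and 296 a protein-coding gene, and 2840 lay outside every gene and over 1 kb from every gene end. The authors' distance to the nearest start site had a median of 18719 bp, with 70.5% beyond 10 kb, 18.4% beyond 50 kb and a longest distance of 412467 bp. The class limit was 2000 bp. The peak just inside it, at chr10:76558519-76559458, lay 2006 bp from a start site and had a score of 300, and the promoter-class peak just outside it, at chr12:48023171-48023595, lay 1999 bp away and had a score of 103. In the H3K4me2 list 18 of 24 colorectal epithelial genes had a peak within 1 kb of an end, and those without one included CDH17, LGALS4, GPA33, FABP1 and MUC2. Of the 8 genes in each other marker list, 3 of hepatocytes, 6 of neurons, 2 of blood and 1 of muscle had one. The neuron list thus had the same share as the colorectal list. The share over all genes is not given here, so these counts do not identify the cell type.

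A few of these peaks did hold a RefSeq start site, and the sequence before such sites is shown for the strongest of them. The MTBP summit lay outside each printed window, so the sequences describe DNA under the peaks and not the bound site. Of the 4021 peaks, 48 held 50 whole upstream windows, each the 250 bases before a start site, and 47 of the 50 belonged to long noncoding RNA genes. The first 3 windows printed here are those of the highest-scoring peaks that held one, and the last is that of the highest-scoring peak whose window held an AP-1 motif. They are RefSeq sequences of GRCh38.p14, 5′ to 3′ on the gene's strand, with motif matches on either strand in capitals. The SLC14A2 window is chr18:45167713-45167962 on the plus strand, the LOC124904899 window chr20:38109768-38110017 on the plus strand, the LOC105378861 window chr1:94562853-94563102 on the plus strand and the LOC124903079 window chr12:114933583-114933832 on the minus strand.
SLC14A2: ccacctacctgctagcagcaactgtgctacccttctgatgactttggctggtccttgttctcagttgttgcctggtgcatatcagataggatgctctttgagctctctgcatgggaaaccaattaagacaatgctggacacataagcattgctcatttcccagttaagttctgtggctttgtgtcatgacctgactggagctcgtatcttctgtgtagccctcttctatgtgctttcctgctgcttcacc
LOC124904899: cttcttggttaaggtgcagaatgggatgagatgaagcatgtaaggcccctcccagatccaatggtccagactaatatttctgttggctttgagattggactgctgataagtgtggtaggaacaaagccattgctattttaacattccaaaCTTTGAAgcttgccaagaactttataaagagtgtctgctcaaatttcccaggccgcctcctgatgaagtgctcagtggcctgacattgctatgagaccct
LOC105378861: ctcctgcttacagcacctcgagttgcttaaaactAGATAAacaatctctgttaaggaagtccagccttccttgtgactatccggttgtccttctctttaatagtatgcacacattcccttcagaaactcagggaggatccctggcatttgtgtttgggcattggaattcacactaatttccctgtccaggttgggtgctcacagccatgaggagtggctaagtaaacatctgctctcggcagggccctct
LOC124903079: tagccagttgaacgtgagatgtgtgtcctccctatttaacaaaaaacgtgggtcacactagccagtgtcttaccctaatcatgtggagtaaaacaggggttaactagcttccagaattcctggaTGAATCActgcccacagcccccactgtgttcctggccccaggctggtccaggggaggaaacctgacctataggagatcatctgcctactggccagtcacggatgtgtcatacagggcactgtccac
The capitals mark a TCF/LEF match (CTTTGAA) in the LOC124904899 window, a GATA match (AGATAA) in the LOC105378861 window and an AP-1 match (TGANTCA) in the LOC124903079 window. The SLC14A2 window held none of the motifs searched.

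The peak over the SLC14A2 window, chr18:45166043-45168120, had a score of 1434, a WT signal of 2769, the highest of all 4021, and a deltaC signal listed at 0. SLC14A2 encodes a urea transporter, and RefSeq places this peak inside the gene while the authors' annotation calls it intergenic, 3386 bp from a start site. The LOC124904899 peak, 16511 bp from TGM2, had a score of 962 and signals of 1141 in WT and 467 in deltaC, and it lay in an initiation zone. The LOC105378861 peak, 20706 bp from F3, the gene of tissue factor, had signals of 781 in WT and 505 in deltaC, and it also lay in a zone. The LOC124903079 peak, 248847 bp from TBX3, had signals of 700.2 in WT and 569 in deltaC and lay 1341094 bp from the nearest zone. Only the last 3 thus kept a deltaC value, and the deltaC value was the lower one in each.

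The windows in these peaks were poorer in CpG than other upstream windows. Their median GC content was 47.8%, against 65.6% for the 8749 windows inside promoter-class MTBP peaks and 58.4% for all 34961 windows of RefSeq. The median CpG observed over expected was 0.152, against 0.846 and 0.558. The AP-1 motif was in 10 of 50 windows (20%), against 4.39% of those in promoter-class peaks and 6.54% of all. The TCF/LEF motif was in 14%, against 2.21% and 3.81%, and the GATA motif in 12%, against 3.69% and 9.18%. The ETS motif (CCGGAA) was in 8%, against 28.7% and 14.5%, and the E2F motif (TTCCCGC) in 2%, against 10.0% and 5.53%. These shares describe 50 windows and were not tested. Of the 50, 47 were of long noncoding RNA genes, and the 2 other sets were not matched for gene type. The class limit of 2000 bp also leaves out windows at the start sites of the authors' list. Base content and motif shares differed together here, and the part of one in the other was not tested.

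MTBP at the intergenic peaks was about as strong as at the other peaks of the class Others. The authors' score, of unstated scale, ran from 40 to 1450 with a median of 190. The WT signal had a median of 352 and quartiles of 247 and 515, and the deltaC signal a median of 198 and quartiles of 125 and 303. Intronic peaks of the class Others had median signals of 345 in WT and 194 in deltaC, and intergenic peaks of the enhancer class 449.9 and 235. The score was 0.056 higher on the log2 scale than at intronic peaks (95% interval 0.013 to 0.099, adjusted p = 0.0163, n = 23), 0.076 higher than at repeat-annotated peaks (adjusted p = 0.000334) and lower than at enhancer-class intergenic peaks (difference -0.28, adjusted p = 1.53e-07). Each of these tests is a linear model across peaks with standard errors clustered by chromosome, with Benjamini-Hochberg adjustment over the 12 comparisons of this kind, and n beside a p is the number of chromosomes. Without chromosomes 2 and 17 the first difference was 0.042 and did not pass (adjusted p = 0.0697, n = 21).

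Nearly all of the intergenic peaks lay on H3K4me2. Of 4021, 3952 (98.3%) overlapped an H3K4me2 peak, where 98.9% of all MTBP peaks did. This share did not pass the test against intronic peaks (difference -0.405 percentage points, -0.964 to 0.153, adjusted p = 0.160, n = 23), repeat-annotated peaks (0.207, -0.329 to 0.743, adjusted p = 0.431) or enhancer-class intergenic peaks (-0.636, -1.45 to 0.184, adjusted p = 0.146). Without chromosome 19 the last passed, at -0.824 (adjusted p = 0.0342, n = 22). MTBP summits lay a median of 133 bp from the summit of the H3K4me2 peak, whose median width was 1913 bp. The H3K4me2 fold enrichment, the authors' value, ran from 2.84 to 84.3 with a median of 19.9. It was lower on the log2 scale than at intronic peaks (difference -0.094, adjusted p = 8.62e-05, n = 23), 0.10 higher than at repeat-annotated peaks (adjusted p = 3.07e-07) and lower than at enhancer-class intergenic peaks (difference -0.23, adjusted p = 2.41e-10). Counting only the H3K4me2 peaks in the upper part of the score range (median and above), 75.4% of the intergenic peaks overlapped one, against 79.9% of intronic, 69.2% of repeat-annotated and 86.4% of enhancer-class peaks, and all 3 differences passed.

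The 69 intergenic peaks without H3K4me2 were weak. Their median score was 112 and their median signals were 209 in WT and 85.8 in deltaC. The highest-scoring of them, chr2:72883519-72884087, lay 3321 bp from SPR, the gene of sepiapterin reductase, and had a score of 211. Of the 69, 16 (23.2%) lay in a zone, a share close to that of all MTBP peaks.

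Initiation zones held 853 of the 4021 intergenic peaks (21.2%, 95% interval 16.9 to 25.5), beside 23% of all MTBP peaks. This was more than the 508 of 5112 intronic peaks (9.94%), by 11.3 percentage points (7.94 to 14.6, adjusted p = 1.16e-06, n = 23). It was also more than the 16.4% of repeat-annotated peaks, by 4.79 points (1.92 to 7.66, adjusted p = 0.00334, n = 23), and less than the 47.9% of enhancer-class intergenic peaks (difference -26.7 points, -31.0 to -22.4, adjusted p = 1.08e-10). The share alone was thus close to the background of all MTBP peaks, and it is the differences from the other classes that passed the test. With distance to a start site, H3K4me2 fold, gene ends, neighbouring MTBP peaks and score all in the model, the difference from intronic peaks was 13.8 points (10.8 to 16.8, adjusted p = 8.89e-09, n = 23). With every zone widened by 50 kb on each side it fell to 4.77 points (adjusted p = 0.0400, n = 23), and the difference from repeat-annotated peaks to 0.699 (adjusted p = 0.634). These intervals measure spread along the genome. The zones carry no value per library, and which of the EdU-seq groups (WT or deltaC, released or in G1) they were drawn from is unstated, so every share in zones, and the WT and deltaC values in and outside zones, are relative to zones of unknown line.

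**Figure D1:**
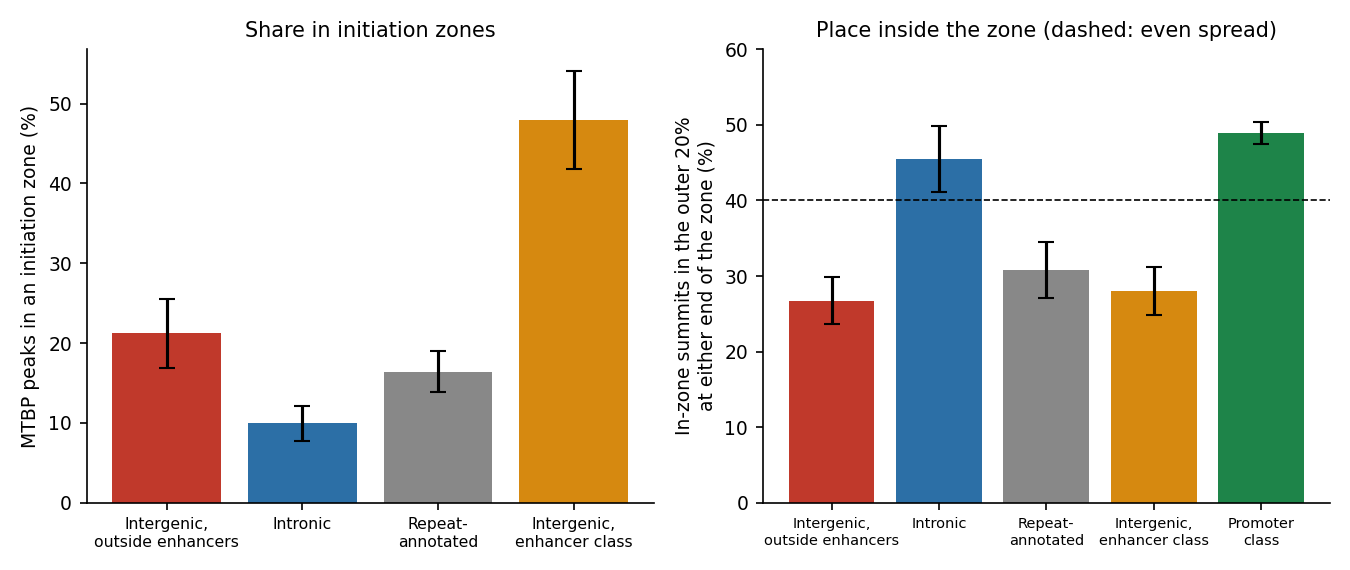
Left, percentage of MTBP peaks of each class that overlap an initiation zone, with 95% intervals clustered by chromosome. Right, percentage of in-zone summits that lie in the outer 20% at either end of their zone, with the 40% of an even spread dashed. The intergenic peaks outside enhancers stand at 21.2% against 9.94% for intronic peaks on the left, and at 26.7% against 45.5% on the right.

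Intergenic and intronic peaks also differed in where they lay inside a zone. Of the 853 intergenic in-zone summits, 228 (26.7%, 23.7 to 29.8) lay in the outer 20% at either end, where an even spread would give 40%. For the 508 intronic peaks in zones it was 45.5% and for the 2826 promoter-class peaks 48.9%, so the intergenic peaks lay toward the middle of zones and these other classes toward the edges. The difference was -18.7 percentage points from intronic peaks (-24.2 to -13.3, adjusted p = 7.43e-07, n = 23) and -22.2 points from promoter-class peaks (-25.8 to -18.7, adjusted p = 7.57e-11). By annotation, intronic and promoter-class peaks lie in or at genes and the intergenic peaks between them. How far this choice of classes sets the place in a zone was not tested. Enhancer-class intergenic peaks, at 28.0%, and repeat-annotated peaks, at 30.8%, did not pass against the intergenic peaks (differences -1.30, -6.24 to 3.64, and -4.09, -9.91 to 1.72). The median width of the zone was 71690 bp around an intergenic peak and 69519 bp around an intronic one. Protein-coding genes made up a median of 10.5 and 69.6% of its length, a difference that the choice of classes by annotation largely fixes. These tests, and the 14 others that compare subsets of peaks or add covariates, were adjusted together over 18.

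Of the 2473 zones, 508 (20.5%) held at least 1 of these peaks and 320 held exactly 1. In 87 zones they were the only MTBP peaks. Those zones had a median width of 36741 bp, a median zone score of 381 and a median of 0% of their length in protein-coding genes. The 421 zones with other MTBP peaks as well had a median width of 70834 bp and a median score of 1205. The 87 zones held a median of 1 MTBP peak and the 421 a median of 4, and this number was not held equal. The 1515 zones with only other MTBP peaks had a median of 2, a median width of 52842 bp and a median score of 728. In the 450 zones without MTBP peaks the median width was 21217 bp and the median score 193. The widest of the 87, chr9:124027572-124146828, held 4 intergenic peaks with scores from 131 to 673. It overlapped LHX2, the gene of a homeodomain transcription factor, and had a zone score of 1957.

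Most of the intergenic peaks were far from a zone. Their median distance to the nearest zone was 506402 bp, against 288456 bp for intronic peaks, and 1394 (34.7%) lay over 1000 kb away, against 29.7% of intronic, 31.6% of repeat-annotated and 24.6% of all MTBP peaks. The share over 50 kb from a zone was 71.1%, against 75.8% of intronic peaks. These differences in distance were not tested. EdU was given for a limited time, and the released cells were also in hydroxyurea and aphidicolin. Sites that start replication later in S phase may therefore be missing from the zone list. A peak outside a zone is outside the listed zones only, here and in the comparisons that follow. Whether replication starts at such peaks later in S phase was not tested.

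The length of the gap between genes separated these groups. Gap length was the distance between the flanking protein-coding genes, and 3720 of the 4021 peaks had one. In gaps under 50 kb, 193 of 459 peaks (42.0%) lay in a zone. The share was 36.9% in gaps of 50 to 100 kb, 33.4% in gaps of 100 to 200 kb, 17.9% in gaps of 200 to 500 kb and 4.37% in gaps of 500 to 1000 kb. In gaps over 1000 kb it was 10 of 542 (1.85%). Median H3K4me2 fold was between 18.7 and 20.5 in every one of these bins, so the mark did not fall with the zones. Split at the median gap, 34.9% lay in a zone in the shorter gaps and 7.86% in the longer ones (difference -27.0 points, -30.4 to -23.6, adjusted p = 1.29e-12, n = 23). With the number of MTBP peaks within 50 kb in the model the difference was -18.9 points (-22.4 to -15.4). Repeat-annotated peaks outside protein-coding genes followed the same course, from 41.7% to 2.5%. Intronic peaks, binned by the length of their host gene, went from 26.8% under 50 kb to 3.93% at 200 to 500 kb, and were at 5.64% and 4.26% in the longer bins.

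**Figure D2:**
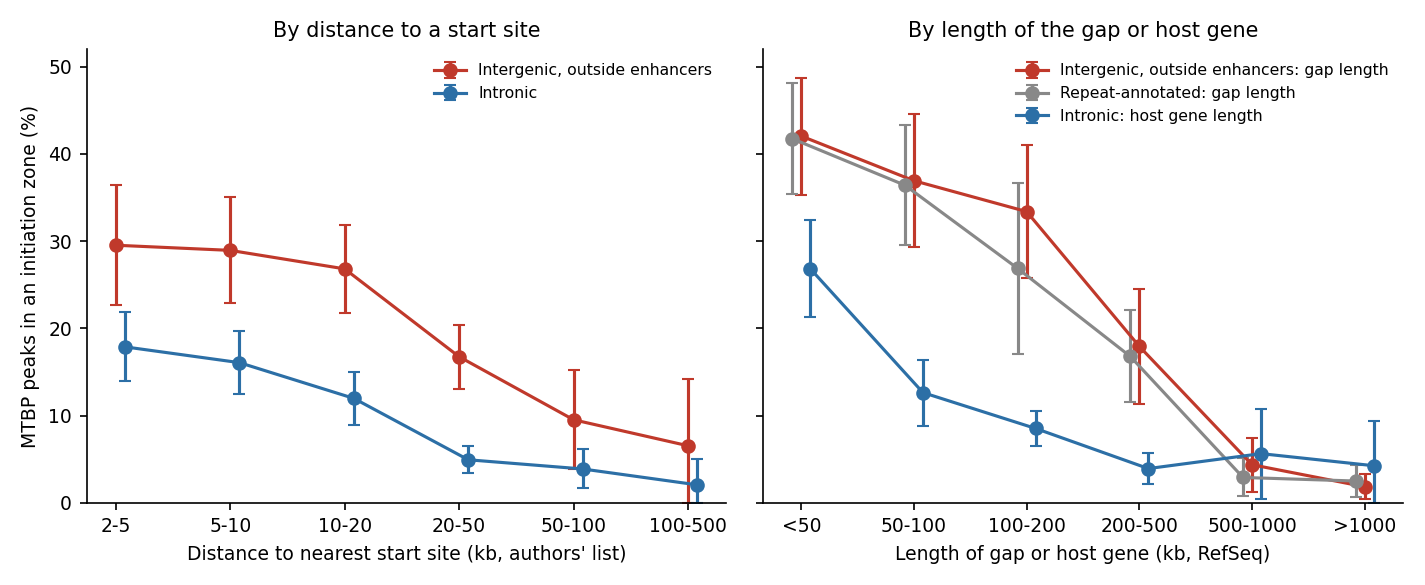
Percentage of MTBP peaks in an initiation zone by distance to the nearest start site (left, authors' distance in kb) and by the length of the gap between protein-coding genes or of the host gene (right, RefSeq, kb), with 95% intervals clustered by chromosome. For the intergenic peaks outside enhancers the share goes from 29.5% to 6.54% on the left and from 42.0% to 1.85% on the right.

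Distance to a start site showed a flatter course. The share in zones was 29.5% within 5 kb, 28.9% from 5 to 10 kb, 26.8% from 10 to 20 kb, 16.8% from 20 to 50 kb, 9.52% from 50 to 100 kb and 6.54% beyond. The share in intronic peaks was lower in each of these bins, from 17.9% to 2.06%. Peaks between genes that point away from each other lay in a zone more often than peaks between genes that point toward each other (21.5% of 659 against 13.7% of 502, difference 7.80 points, 1.23 to 14.4, adjusted p = 0.0307, n = 22). With gap length in the model this difference was 7.51 points (adjusted p = 0.0201, n = 22). The strand of both flanking genes was known for 2396 peaks, and the 1324 with an unknown strand had a share of 26.3%, above both. The 2250 peaks upstream of their nearest start site did not pass against the 1771 downstream (difference 4.01 points, adjusted p = 0.0589, n = 23). Overlap with a RefSeq gene made a difference of 1.36 points that did not pass (-2.91 to 5.63, adjusted p = 0.547, n = 23).

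The number of other MTBP peaks nearby went with zones most steeply. Of the 449 peaks with no other MTBP peak within 100 kb, 2 lay in a zone (0.445%). The share was 4.15% with 1 or 2 neighbours, 18.0% with 3 to 5, 40.7% with 6 to 10 and 74.7% with more. In a logistic model of zone membership over the 3952 peaks with H3K4me2, the log odds per SD were 1.55 for other MTBP peaks within 50 kb (1.26 to 1.83, adjusted p = 5.42e-10, n = 23) and 0.43 for ends of protein-coding genes within 50 kb (0.29 to 0.57, adjusted p = 4.54e-06). They were -0.18 for log10 distance to a start site (-0.32 to -0.051, adjusted p = 0.0148, n = 23). The peak's own score (0.098, -0.00084 to 0.20, adjusted p = 0.0648, n = 23) and its H3K4me2 fold (-0.061, -0.19 to 0.071, adjusted p = 0.347) did not pass. Without chromosomes 2 and 17 the score did (0.12, adjusted p = 0.0310, n = 21). By H3K4me2 fold quartile the share in zones was 22.4, 19.8, 20.9 and 21.7%.

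Intergenic peaks came in runs in places. With gaps of at most 10 kb they formed 3522 runs, of which 3114 were single peaks, and 907 peaks (22.6%) were in runs. The share in zones was 17.3% for single peaks, 30.5% in runs of 2 and 46.8% in the 70 runs of 3 or more. The longest run, of 7 peaks at chr17:65278244-65298786, lay between RGS9, a regulator of G protein signalling, and AXIN2, a Wnt target that acts as a negative feedback regulator of that pathway. All 7 were in a zone, with WT signals from 218 to 598 and deltaC signals from 88.3 to 245. A run of 5, chr17:65567992-65595100, lay between AXIN2 and CEP112, and all 5 were in a zone. A run of 4 between BLM, the Bloom helicase gene, and FURIN, a protease gene, at chr15:90844898-90865067, and a run of 4 between PKDCC and EML4 at chr2:42123521-42133984 were also in zones throughout. A run of 4 between ZC3H11B and SLC30A10, at chr1:219783265-219802512, was not in a zone. Its WT signals ran from 629 to 1607 and those of the BLM to FURIN run from 353 to 1645, so the ranges overlapped.

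The zone with the most of these peaks was chr17:65206341-65493602, beside RGS9 and AXIN2. It was 287 kb wide, had a zone score of 3721, and held 17 of them, 7 other MTBP peaks and 29 H3K4me2 peaks. The 17 peaks had WT signals from 156 to 1255 with a median of 478, and deltaC signals from 43.8 to 469 with a median of 201. The deltaC value was the lower one at 16 of 17. The exception, chr17:65365202-65365787, had a WT signal of 156, the lowest of the 17, and a deltaC signal of 196. The strongest, chr17:65370210-65371917, had 1255 in WT and 397 in deltaC. Protein-coding genes covered 7.44% of the zone.

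**Figure D3:**
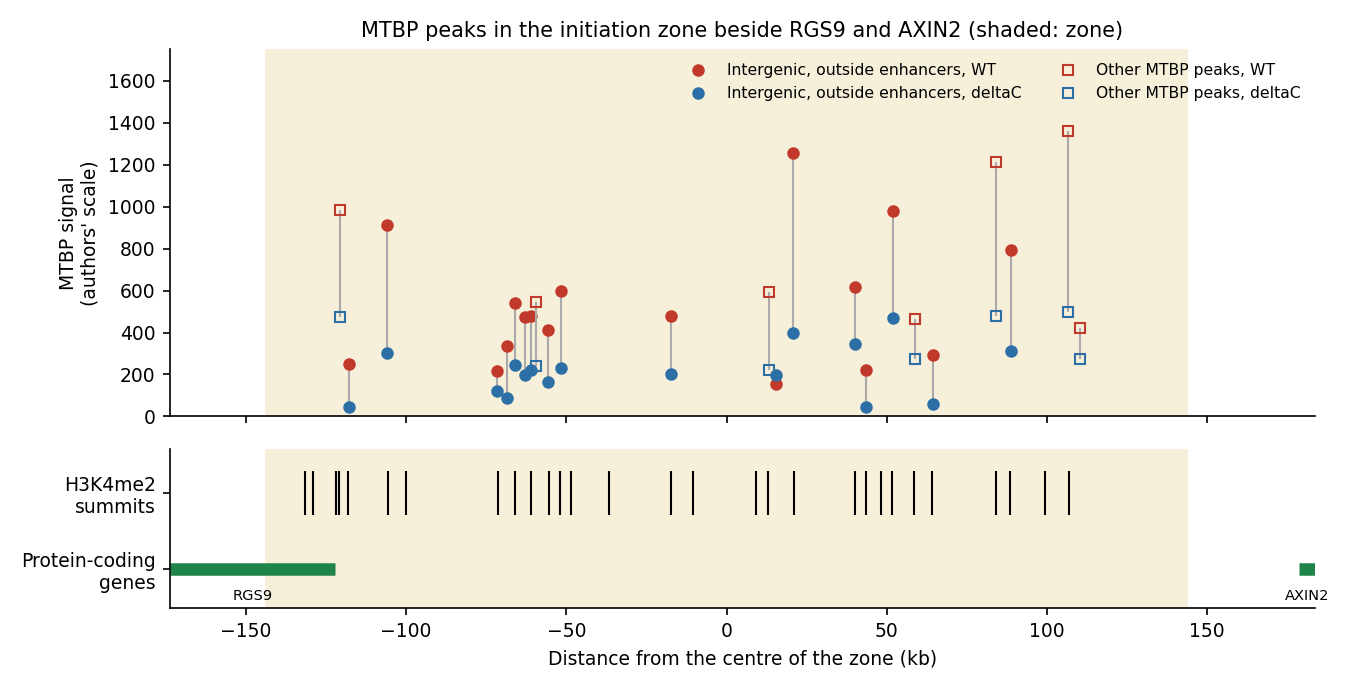
MTBP signal in WT (red) and deltaC (blue), on the authors' scale, against distance from the centre of the zone beside RGS9 and AXIN2 in kb, with H3K4me2 summits and protein-coding genes below. Filled circles are the 17 intergenic peaks outside enhancers, open squares the 7 other MTBP peaks, grey lines join the pair of values of a peak, and shading is the zone. The deltaC value is below the WT value at 16 of the 17.

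The gap with the most intergenic peaks had no listed zone at any of them. It is the 1364818 bp between KLF4, a transcription factor gene active in gut epithelium, and ACTL7B on chromosome 9, and it held 23 of these peaks and 11 other MTBP peaks. The 23 had scores from 78 to 577, WT signals from 139 to 1464 with a median of 465, and deltaC signals from 135 to 965 with a median of 271. The 17 peaks of the RGS9 to AXIN2 gap, 300859 bp long, had a like WT median of 478, and all 17 were in a zone. H3K4me2 fold ran from 8.51 to 43.3 in the first gap and from 8.31 to 42.9 in the second. WT signal and H3K4me2 fold thus covered similar ranges in the 2 gaps. The TBX3 to MED13L gap, 1274400 bp, held 15 peaks and the ZC3H11B to SLC30A10 gap 14, none in a zone. TBX3 is a developmental transcription factor gene and SLC30A10 a manganese transporter gene. By nearest protein-coding gene, ACTL7B had 14 of these peaks, TBX3 13, RGS9 12, NR2F2, a nuclear receptor gene, 11, and PIK3R1, the gene of a PI3-kinase regulatory subunit, 11. All 12 at RGS9 were in zones, and 0 at the other genes were. Of the 19 gaps with 10 or more of these peaks, 11 had none in a zone. These gaps were chosen after their values were seen.

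The peaks at the extremes of distance, width and score are named next, and with 21.2% of all 4021 in a zone, a set of 5 with none in one is near that background. The peak farthest from a start site, chr6:80969389-80969924, lay 412467 bp away in the gap between BCKDHB and TENT5A, with signals of 231 in WT and 89.1 in deltaC and an H3K4me2 fold of 5.01. Of the 5 farthest, 3 lay in 1 gap between EPHA7 and MANEA on chromosome 6, at least 9422137 bp from the nearest zone. None of the 5 was in a zone. The widest, chr1:219699266-219704152, spanned 4887 bp in the ZC3H11B to SLC30A10 gap, with signals of 2168 in WT and 1429 in deltaC, the highest deltaC value of all 4021. Of the 5 widest, 3 lay in that gap and none lay in a zone. The 5 highest scores, from 1256 to 1450, were also outside zones, while over whole quartiles the share in zones was 25.9% in the widest and 16.8% in the narrowest, and 23.9% in the highest scores and 21.2% in the lowest. They included chr9:91535997-91536877, 52500 bp from NFIL3, a transcription factor gene, and chr2:68888938-68890340 between BMP10 and GKN2, a gastrokine gene. The lowest score, 40, was at a peak between PENK and BPNT2 with signals of 125 in WT and 131 in deltaC.

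By chromosome, the intergenic peaks made up from 3.59% of MTBP peaks on chromosome 19 to 18.7% on chromosome 8, and chromosome 2 held the most (479). Their share in zones ran from 7.35% on chromosome 4 to 60.2% (74 of 123) on chromosome 17. It was above that of intronic peaks on 22 of 23 chromosomes, and chromosome 20 was the exception (14.4 against 17.1%). On chromosome 17 it was 60.2 against 27.8%, on chromosome 22 54.5 against 18.9%, on chromosome 21 39.3 against 7.04% and on chromosome 2 25.3 against 6.26%. Without chromosomes 2 and 17 the difference over the genome was 9.68 points (adjusted p = 2.78e-06, n = 21). Zones covered 17.5% of the span of chromosome 17 and 1.37% of that of chromosome 4.

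**Figure D4:**
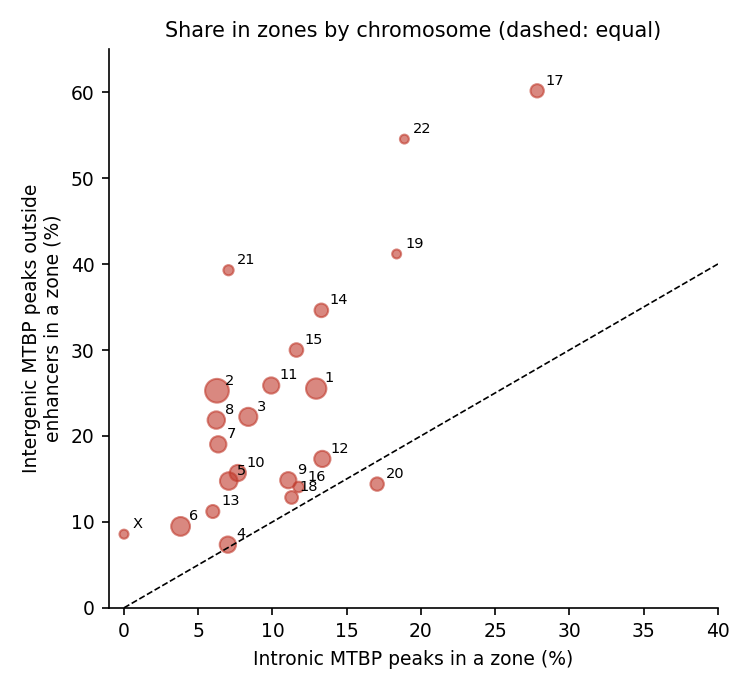
Percentage of intergenic MTBP peaks outside enhancers in a zone against the same percentage of intronic MTBP peaks, 1 point a chromosome, with point area growing with the number of intergenic peaks. Points above the dashed line, 22 of 23, have the higher share in intergenic peaks, and chromosome 20 is below it.

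The deltaC signal was lower than the WT signal at most of these peaks. The median log2((deltaC + 1)/(WT + 1)) was -0.87, against -0.93 over all MTBP peaks. Of the 4021, 1679 (41.8%) had a deltaC value at least 2-fold lower, beside 44.9% of all MTBP peaks, and 21 (0.522%) a value at least 2-fold higher, beside 0.419%. Both shares were near the background, so the intergenic peaks did not stand apart in these 2-fold shares. The scaling between the WT and the deltaC values is not stated, so the sign of the median rests on the authors' scale. Set against the median of all MTBP peaks, the median was 0.063. The sign also rests on the make-up of the list, where 3864 of the 4021 peaks carry a name that begins with WT. In-zone peaks had a median of -1.12 and the others -0.81, and over all MTBP peaks these were -1.14 and -0.87. The WT medians were close (357 in zones and 349 outside), and the deltaC medians were 184 and 202. By score quartile the median ratio was -0.75, -0.85, -0.91 and -0.93. With 1 value per line, none of these differences has a replicate check.

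The median was below 0 on all 23 chromosomes. It was lowest on chromosome 17 (-1.35) and chromosome 22 (-1.34) and highest on chromosome 4 (-0.74). Without chromosome 17 the in-zone median was -1.09 and the other -0.81. In the 10-Mb stretch from 40 to 50 Mb on chromosome 17, 25 of 29 intergenic peaks were in a zone and their median ratio was -1.64, with a WT median of 288 and a deltaC median of 83.6. The 263 other MTBP peaks of that stretch had a median ratio of -1.22.

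**Figure D5:**
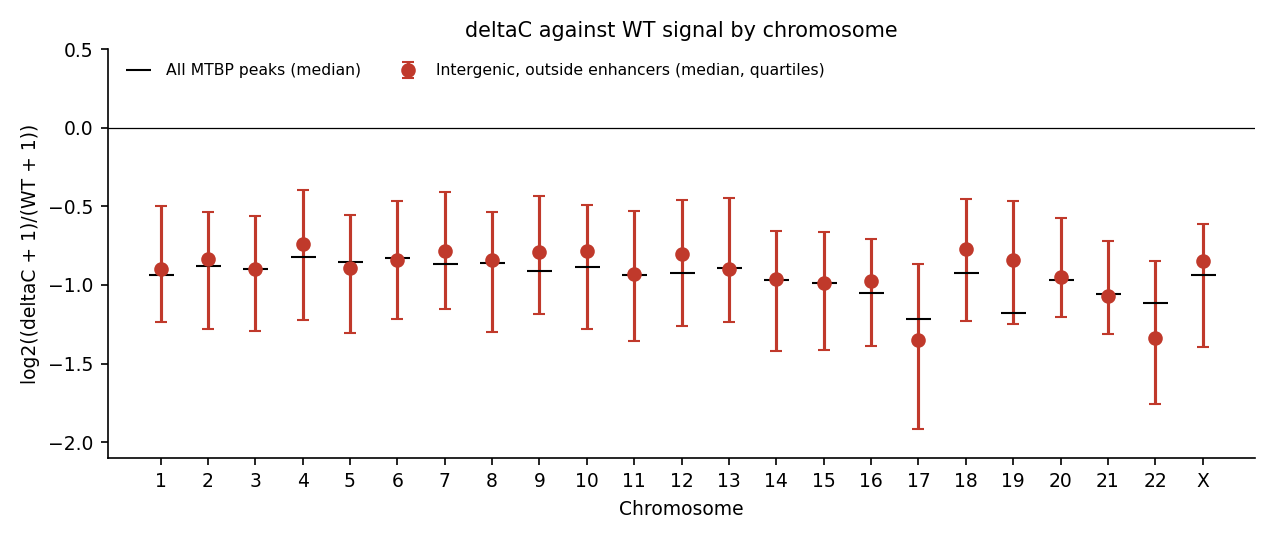
Median log2((deltaC + 1)/(WT + 1)) of the intergenic MTBP peaks outside enhancers by chromosome (red points, with bars from the lower to the upper quartile over peaks) and of all MTBP peaks (black marks), on the authors' signal scale. Every median is below 0, and that of the intergenic peaks runs from -1.35 on chromosome 17 to -0.74 on chromosome 4.

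DeltaC was listed at 0 at 47 of the 4021 intergenic peaks and at 186 of all 29848 MTBP peaks, and WT at none of the intergenic peaks. DeltaC was at 0 at 38 of 5112 intronic, 25 of 4524 repeat-annotated and 8 of 1481 enhancer-class intergenic peaks. The share was thus highest in the intergenic peaks outside enhancers, and this was not tested. Besides the SLC14A2 peak the 47 included chr16:65665134-65667186, in the gap between CDH11 and CDH5, 2 cadherin genes, with a WT signal of 873. They also included chr15:93703090-93704004, 527362 bp from MCTP2, with a WT signal of 555. Both lay outside zones and had no other MTBP peak within 100 kb. At the other end, chr6:105569589-105570906, between PREP and PRDM1, had 467 in deltaC against 169 in WT, and chr2:59079349-59081034, 837969 bp from FANCL, had 409 against 188. In the authors' list 157 of the intergenic peaks carry a name that begins with deltaC and 3864 a name that begins with WT. All 21 that were at least 2-fold higher in deltaC were among the former.

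Some peaks lay nearest to genes of known pathways, and counts are given for nearest protein-coding genes. Over all 19974 protein-coding genes, 2349 were nearest to an intergenic peak, and the intergenic peaks made up 13.5% of all MTBP peaks. They made up 21.9% of the 114 MTBP peaks nearest to the Wnt list and 22.6% of the 133 nearest to the colorectal list. Of 21 Wnt targets and feedback genes, 9 were nearest to 25 intergenic peaks, of which 14 (56%) were in zones, against 21.2% of all 4021. AXIN2 accounted for 10 of the 14. The median ratio at the 25 was -1.28. The strongest, chr17:65587584-65589778, 25936 bp from AXIN2, had signals of 1241 in WT and 511 in deltaC. Near ASCL2, a transcription factor of gut stem cells, chr11:2256591-2257977 had 575 and 128 and lay 34313 bp from a zone. A peak in a zone 143371 bp from CCND1, the gene of cyclin D1, had 543 and 164. Of 24 colorectal epithelial genes, 11 were nearest to 30 peaks, of which 5 (16.7%) were in zones. SOX9 encodes a transcription factor of the crypt base. A peak 55981 bp from it, at chr17:72182397-72183982, was in a zone, with 1268 in WT and 620 in deltaC. A second, at chr17:71633153-71634285, lay 486735 bp from SOX9 and 526108 bp from a zone, with 574 and 279. The peak at chr20:22511868-22513086, 67912 bp from FOXA2, had 695 and 323 and was outside zones.

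Of the MTBP peaks nearest to the AP-1 and immediate early list, 11.3% of 71 were intergenic peaks, and of those nearest to the EGFR list 10.7% of 121. Both shares were near the 13.5% of all MTBP peaks. For the replication initiation list the share was 11.1% of 27, and for the fragile site list 6.12% of 49. Of 16 AP-1 and immediate early genes, 4 were nearest to 8 peaks, 4 of them in zones. DUSP5, a phosphatase gene that ERK signalling switches on, was nearest to a pair in a zone, 13518 and 14958 bp away. The pair had WT signals of 487 and 434 and deltaC signals of 233 and 181. Of 16 genes of EGFR ligands and feedback, 7 were nearest to 13 peaks, 2 of them in zones, with a median ratio of -0.48. SPRED2, a gene that restrains Ras signalling, was the nearest to 2 strong peaks, but they lay 228643 and 225624 bp from it. They had 1168 in WT and 834 in deltaC at chr2:65661242-65663502 and 987 and 559 at chr2:65658223-65659821. Of 28 genes of replication initiation, 2 were nearest to 3 peaks. CDC7, the gene of the kinase that prepares the helicase for activation, was nearest to a pair in a zone, 52096 and 41525 bp away. The pair had 667 in WT and 258 in deltaC at chr1:91577860-91579146 and 237 and 106 at chr1:91567289-91568113. TOPBP1, whose product binds Treslin, was nearest to one outside zones, 4244 bp away, with 246 and 161. Of 10 genes at common fragile sites, FHIT and NAALADL2 were nearest to 3 peaks, none in a zone. These lists were not tested, and their shares rest on few peaks that often share a zone.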

How the data were processed

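CUT&RUN and EdU-seq gave 22 libraries in 8 groups, and 3 deposited lists of the whole series were used. The submitters' processing notes name hg38 as the build, and HOMER, MACS2, Bowtie2 and Trim Galore as tools. Their versions and settings, and any pooling of replicates, are not stated there, and the depth behind the lists is unknown, so no counting interval was computed. In the MTBP list the authors gave a score and a signal per line, and in the zone list a zone score. In the H3K4me2 list the deposited values were a score, a fold enrichment (ratio) and a −log10 q-value. No per-sample column was in the lists.

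The peaks, gene lists and tests were chosen with earlier results of these data known, and the gap comparison, place in zones and RefSeq windows were added after seeing the files. An overlap was at least 1 bp, and 10 peaks on Y were left out. Differences between classes came from linear models, and the zone model from a logistic model, with standard errors clustered by 23 chromosomes (t distribution, 22 degrees of freedom, 2-sided), Benjamini-Hochberg adjustment and statsmodels 0.14.6 under Python 3.11.15. Both were tested on simulated data with peaks drawn independently, for the linear model around a chromosome effect common to both classes. The sharing of a zone by neighbouring peaks was not simulated, so these tests do not cover it. WT and deltaC were compared as log2((deltaC + 1)/(WT + 1)), with a pseudocount of 1 and no p-value. Genes and upstream windows came from RefSeq GRCh38.p14. RefSeq strands came from the window table.

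Regions were named as the 5 highest and lowest by score and, among peaks of at least the median mean signal, by deltaC over WT, the 5 farthest, the 5 widest, the 5 longest runs, the 5 best and 5 widest zones with no other MTBP peak, the 5 best without H3K4me2, the 5 genes nearest to most peaks, and up to 3 peaks per gene list. The best of each set were printed. The EdU-seq, IgG and untagged libraries had no values of their own in the lists and were not analysed here. Other overlaps, thresholds, covariates, pseudocounts and chromosomes left out were tried as alternatives.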

Additional observations from a re-analysis of the deposited data

How the results depend on the processing

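No paired analysis was possible because the lists hold no value per library. Of 103 other settings of the results given, 87 kept their direction and side of the threshold or, for values without a test, moved by less than their interval. Zones widened by 50 kb took the difference from repeat-annotated peaks to 0.699 points (adjusted p = 0.634, n = 23). With the weaker H3K4me2 peaks (score under the median) left out, the differences in H3K4me2 share were -4.42, 6.20 and -11.0 points (intronic, repeat-annotated, enhancer-class) and passed the test. With any H3K4me2 peak counted and MTBP peaks under their median score left out, the difference from enhancer-class peaks was 0.168, where it was -0.636 over all of them. Neither passed. Without chromosomes 2 and 17 the score difference from intronic peaks was 0.042, and the score's log odds in the zone model 0.12. With 200-kb windows the log odds of H3K4me2 fold were 0.054. The median deltaC over WT was -0.84 with a pseudocount of 10, -0.82 without the lowest quartile of mean signal, and 0.063 after the median of all MTBP peaks was taken off. The share at least 2-fold lower was then 39.3, 37.1 and 8.68%. Runs of 3 or more numbered 28 with gaps of at most 5 kb and 250 with gaps of at most 50 kb. In these cases the cause was not tested.

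With each chromosome left out in turn, the differences in zone share were 10.3 to 11.9 points against intronic peaks, 4.20 to 5.29 against repeat-annotated and -27.4 to -25.7 against enhancer-class peaks. Those in H3K4me2 share were -0.502 to -0.304, 0.0926 to 0.350 and -0.824 to -0.475, and only the last changed its call, without chromosome 19. The GC term of the zone model and the motif search around summits were not run, since no genome sequence was used here. The depth behind each value is unknown, and so is the error between cultures.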

Other observations

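Zone shares outside and inside RefSeq genes were also compared in other sets of regions, of which the last takes in sites of the intergenic MTBP peaks. Among the intergenic peaks themselves, which the authors' annotation places outside genes, this difference did not pass (1.36 points, adjusted p = 0.547, n = 23). In zones were 21.6% of those outside every RefSeq gene and 20.2% of those inside any RefSeq gene. Inside a protein-coding gene it was 19.6% (58 of 296), a contrast that was not tested. Among MTBP peaks annotated to a repeat, 23.5% of the 1786 outside every RefSeq gene lay in a zone, against 9.91% of the 2110 inside a protein-coding gene (difference 13.6 percentage points, 11.1 to 16.1, adjusted p = 6.45e-10, n = 23, linear model clustered by chromosome, adjusted over 18 comparisons). H3K4me2 peaks over 2 kb from every gene end were then split by MTBP. In the whole H3K4me2 list 3826 peaks held an intergenic MTBP peak, and such peaks were part of the set with MTBP. The difference in that set, and the interaction, are therefore not separate from the comparison of intergenic with intronic peaks. Of those without an MTBP peak, 15.1% of 8973 outside genes and 8.33% of 13780 inside protein-coding genes lay in a zone (difference 6.75 points, 5.11 to 8.38, adjusted p = 4.24e-08, n = 23). Of those with one, 27.6% of 5312 and 12.9% of 8788 did (difference 14.6 points, 11.6 to 17.7, adjusted p = 5.59e-09, n = 23). The interaction was 7.89 points (5.40 to 10.4, adjusted p = 2.14e-06, n = 23), so the difference between outside and inside was larger where MTBP was listed. H3K4me2 strength was not held equal in this comparison.

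The nearest MTBP peak of the promoter class was within 10 kb for 395 of 4021 intergenic peaks (9.82%), for 11.5% of intronic peaks and for 11.1% of repeat-annotated peaks. The median distance was 92257, 66482 and 68028 bp. These differences were not tested.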
